A study of Mus musculus with 94 samples.

Results

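Ly6a encodes Sca-1, a surface protein used to sort mouse haematopoietic stem cells, and all 94 cells in the table had been sorted as Sca-1-positive. The groups compared here were chosen by the measured level of the Ly6a transcript itself. A total of 56 of 94 cells had 5 TPM or more, where TPM is the share of a cell's transcripts on a fixed scale, and are called Ly6a-high, and the other 38 cells, with less than 5 TPM, are called Ly6a-low. All other genes were then compared between the groups. Because Ly6a chose the groups, every value below is a description, and no test was made.

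The cells were C57BL/6 mouse stem cells of fetal liver origin that had been transplanted 6 months earlier, and carried the genotype label Ski-KO (46 cells) or Ski-WT (48 cells). Ski restrains gene expression downstream of TGF-beta and Smad proteins, and how it was removed is not given in the labels. Bone marrow was taken from hindlimbs, enriched with CD117 beads and sorted for Cd45.2, c-Kit, Sca-1 and Cd150 and against lineage markers and Cd48. A Fluidigm C1 chip held the cells apart, which gave a library per cell. The 6-digit start of the cell names is used here as a label prefix. Prefix 051716 (27 cells) and prefix 051816 (19 cells) were Ski-KO, and prefix 061016 was the only one among Ski-WT cells, so a difference between genotypes cannot be told apart from one between prefixes. What a prefix stands for is not labelled, and the labels tie cells to no animal or culture, so cells are not counted as replicates of a genotype.

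Sca-1 belongs to the Ly6 family of small folded proteins that are held on the outside of the cell by a glycosylphosphatidylinositol (GPI) lipid anchor. It is carried by stem cells and multipotent progenitors of C57BL/6 mice and is lost as cells commit to the myeloid and erythroid lineages. Its gene is also known to be switched on by interferons, as are genes of antigen presentation.

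Ly6a was high in 20 of 27 cells of prefix 051716 (74.1%, exact 95% interval 53.7% to 88.9%). It was high in 7 of 19 cells of prefix 051816 (36.8%, 16.3% to 61.6%) and in 29 of 48 Ski-WT cells (60.4%, 45.3% to 74.2%). The Ski-KO prefixes lay on either side of the Ski-WT cells, and all Ski-KO cells together gave 27 of 46 (58.7%, 43.2% to 73%). Intervals here and below cover counting error only.

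Among Ly6a-high cells, Ly6a ranged from 9.76 to 4128 TPM with a median of 645 TPM in prefix 051716, from 10.9 to 1845 TPM with a median of 975 TPM in 051816, and from 12.2 to 3958 TPM with a median of 302 TPM in 061016. Among Ly6a-low cells, 26 were at 0 and 12 lay above 0. The 4 values just below the limit were 2.05, 2.34, 2.78 and 3.54 TPM, and the 4 just above it were 9.76, 10.2, 10.8 and 10.9 TPM. A gap therefore lay on the limit, and 7 cells fell between 5 and 50 TPM.

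**Figure D1:**
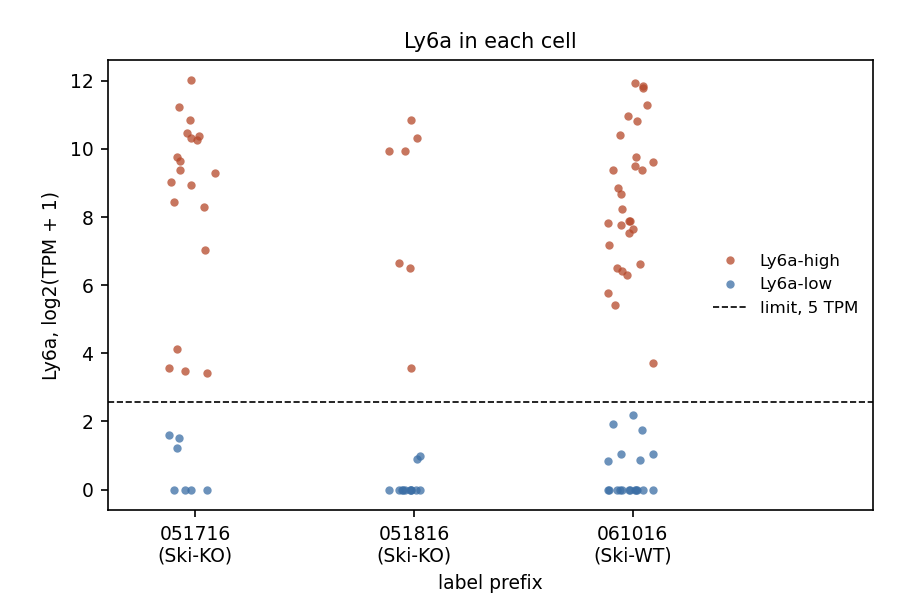
Ly6a as log2(TPM + 1) in each cell, by label prefix, with Ly6a-high cells in red, Ly6a-low cells in blue and the limit of 5 TPM as a dashed line. Each point is a cell, and 26 of the 38 Ly6a-low cells sit at 0 while 49 of the 56 Ly6a-high cells lie at 50 TPM or more.

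The number of genes above 0 did not separate the groups in the same way in every prefix. The median was 3308.5 genes per Ly6a-high cell and 3133 per Ly6a-low cell in prefix 051716, 3727 and 3564.5 in 051816, and 3454 and 3828 in 061016. TPM values keep no sequencing depth, so the depth of a cell is unknown, and its part in a transcript being absent was not tested.

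The other genes of the sort gate did not follow Ly6a. Kit, which encodes the c-Kit receptor, reached 5 TPM in 47 of 56 Ly6a-high and 32 of 38 Ly6a-low cells, and its difference changed sign between prefixes (1.49, -2.59 and -0.44 on the log2 scale for 051716, 051816 and 061016). Ptprc, which encodes Cd45, reached it in 37 and 24 cells. Slamf1, which encodes Cd150, reached it in only 6 and 5 cells although the gate required the protein. Cd48, which the gate excluded, reached it in 0 of 56 and 0 of 38 cells, which allows shares of up to 6.38% and 9.25%. Ski itself reached 5 TPM in 5 Ly6a-high and 4 Ly6a-low cells.

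For every gene, the difference is the mean of log2(TPM + 1) over Ly6a-high cells minus that over Ly6a-low cells, taken inside each prefix and averaged over the 3 prefixes with equal weight. It is a difference on that scale, not a fold of mean level. A gene is called higher or lower when its difference had the same sign in all 3 prefixes and averaged at least 1. Genes had to be above 0 in 25% or more of the 94 cells, which left 5464. Of these, 273 (5.0%) were called higher and 244 (4.47%) lower in Ly6a-high cells. The median difference over all these genes was 0.05, made up of 0.26 in prefix 051716, 0.08 in 051816 and -0.18 in 061016.

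Most differences in a prefix did not recur in the others. Across the 5464 genes, which are not independent, Pearson's r between the differences of 2 prefixes was -0.01 for 051716 and 051816, 0.06 for 051716 and 061016, and 0.005 for 051816 and 061016. A difference of the same sign in all prefixes was found for 681 genes on the higher side (12.5%) and 621 on the lower side (11.4%). Signs unrelated between prefixes would give shares near these, so a common sign alone says little about a gene. With all cells pooled, 251 genes differed by at least 1 on the higher side, of which 158 were also called inside the prefixes, and 396 on the lower side, of which 182 were.

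The 12 genes with the most even positive differences and the 12 with the most even negative ones, ranked by the smallest of the prefix differences, are described next. All 24 were at 0 in at least 1 cell of both groups. In each of the 72 comparisons of a gene in a prefix the ranges of the groups overlapped, and in 71 of them the difference was smaller than the larger SD among cells. The groups thus differed in the share of cells with a high value, and no named gene divided them cell by cell. Under at least 1 of 16 alternative settings, 8 of the 24 (Lamtor5, Ctsd, Naip5, Tomm7, Tomm22, Thumpd3, Atox1 and Gm15772) differed by less than 1.

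The highest pair were H2-Aa, the alpha chain of the MHC class II molecule I-A, and Cd74, the invariant chain that guides class II molecules to the compartment where peptide is loaded. H2-Aa had a lowest value of 0 in every group. Its median and highest values were 1.86 and 3923 TPM in 20 Ly6a-high cells against 1.17 and 2.51 TPM in 7 Ly6a-low cells of prefix 051716. They were 187 and 510 TPM in 7 cells against 1.09 and 2065 TPM in 12 cells of 051816, and 130 and 5724 TPM in 29 cells against 0 and 1020 TPM in 19 cells of 061016. Medians were thus higher in Ly6a-high cells in each prefix, but in 051716 both medians lay under 5 TPM. The highest H2-Aa value of 051816 was in a Ly6a-low cell. The mean of log2(TPM + 1) was 4.47 ± 4.90 (SD, 20 cells) and 0.93 ± 0.69 (7 cells) in 051716, 5.69 ± 3.97 (7 cells) and 3.05 ± 3.92 (12 cells) in 051816, and 5.38 ± 4.97 (29 cells) and 2.71 ± 4.09 (19 cells) in 061016. The differences were 3.54, 2.63 and 2.68, with a mean of 2.95. At 5 TPM or more, H2-Aa was found in 9 of 20 against 0 of 7 cells, 5 of 7 against 4 of 12, and 16 of 29 against 6 of 19.

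Cd74 had medians of 57.4 and 1.08 TPM in the Ly6a-high and Ly6a-low cells of 051716, 30.9 and 0 TPM in 051816, and 43.2 and 0 TPM in 061016. Its highest values were 3161 and 270 TPM, 1809 and 1266 TPM, and 7306 and 567 TPM in the same order. For Cd74 both the median and the highest value were larger in Ly6a-high cells of every prefix, and the differences were 2.92, 3.29 and 2.46 (mean 2.89). The gene reached 5 TPM in 10 of 20 against 2 of 7 cells, 4 of 7 against 3 of 12, and 16 of 29 against 5 of 19.

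H2-Aa and Cd74 were often found in the same cells. Both reached 5 TPM in 26 of 56 Ly6a-high cells (46.4%, 33% to 60.3%) and in 4 of 38 Ly6a-low cells (10.5%, 2.94% to 24.8%). By prefix, the counts were 8 of 20 against 0 of 7, 4 of 7 against 2 of 12, and 14 of 29 against 2 of 19. At least 1 of the 2 genes reached it in 34 Ly6a-high and 16 Ly6a-low cells. Neither gene reached it in 22 Ly6a-high and 22 Ly6a-low cells.

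The other class II genes, put into a list after the values of H2-Aa and Cd74 had been seen, were less even. H2-Ab1, the beta chain of I-A, reached 5 TPM in 9 of 20 against 1 of 7 cells, 6 of 7 against 2 of 12, and 10 of 29 against 8 of 19. Its differences of 2.64, 4.54 and -0.01 show it higher in Ly6a-high cells of both Ski-KO prefixes and level in the Ski-WT cells. H2-DMa, a subunit of the H2-DM molecule that exchanges class II peptides, went the other way in Ski-WT cells (2.77, 4.80 and -2.18), while its partner H2-DMb1 was called higher (1.59, 0.34 and 1.29). H2-Eb1, the beta chain of I-E, had differences of 2.02, -1.21 and 0.59. Ciita, the master activator of class II genes, reached 5 TPM in 0 Ly6a-high and 2 Ly6a-low cells. Apart from H2-Aa and Cd74, 5 class II genes and regulators were measured widely enough. Of these, 1 was called higher and 0 lower, beside 5.0% and 4.47% of all genes. The median difference of the 5 was 1.07, from 2.02, 0.34 and 0.10 by prefix, beside 0.26, 0.08 and -0.18 for all genes. All 4 of H2-Aa, H2-Ab1, H2-Eb1 and Cd74 reached 5 TPM in 7 Ly6a-high cells and 0 Ly6a-low cells, and none of them did in 15 and 17 cells.

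Class II genes are also carried by dendritic cells, macrophages and B cells, and markers of these cells were read beside them. Of 11 macrophage and dendritic cell genes in the table other than class II genes, 9 (Mrc1, C1qa, C1qb, C1qc, Vcam1, Itgax, Siglech, Cx3cr1 and Batf3) reached 5 TPM in no cell of either group. Cd68 of that list reached it in 4 Ly6a-high and 0 Ly6a-low cells, and Flt3 in 12 and 4. The summed level of the 11 genes had a median of 0 TPM in both groups, with highest values of 1417 and 185 TPM. Of 10 B cell genes, Vpreb1, Igll1, Rag2, Dntt, Blnk, Cd22, Bank1 and Ly6d reached 5 TPM in no cell of either group. Cd79a reached it in 0 Ly6a-high cells and 1 Ly6a-low cell. The remaining B cell gene, measured widely enough, differed by 0.18, -2.16 and -1.17 by prefix. The sum of the 10 genes had a median of 0 TPM in both groups, with highest values of 908 and 2614 TPM.

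Class II promoters are known for a conserved module that includes the Y box, a reversed CCAAT element bound by NF-Y. A search of the 250 bases before the H2-Aa start for CTGATTGG on both strands, a motif chosen after the values were seen, found a match 51 bases before the start. Of 32851 promoters of that length in the RefSeq table (GRCm38.p6), 3.83% held it, and so did 288 of the 4174 compared genes with a promoter there (6.9%, counting every start of a gene). The sequence is shown because H2-Aa ranked first at the higher end by the smallest of its prefix differences. It is written on the strand of the gene (minus strand, chr17:34287824-34288073), with the Y box in capitals.
H2-Aa: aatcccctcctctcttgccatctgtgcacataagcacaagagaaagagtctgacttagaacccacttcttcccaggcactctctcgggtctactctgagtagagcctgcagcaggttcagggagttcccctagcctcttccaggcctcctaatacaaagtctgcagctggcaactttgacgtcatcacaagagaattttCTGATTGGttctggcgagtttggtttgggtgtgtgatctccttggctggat

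**Figure D2:**
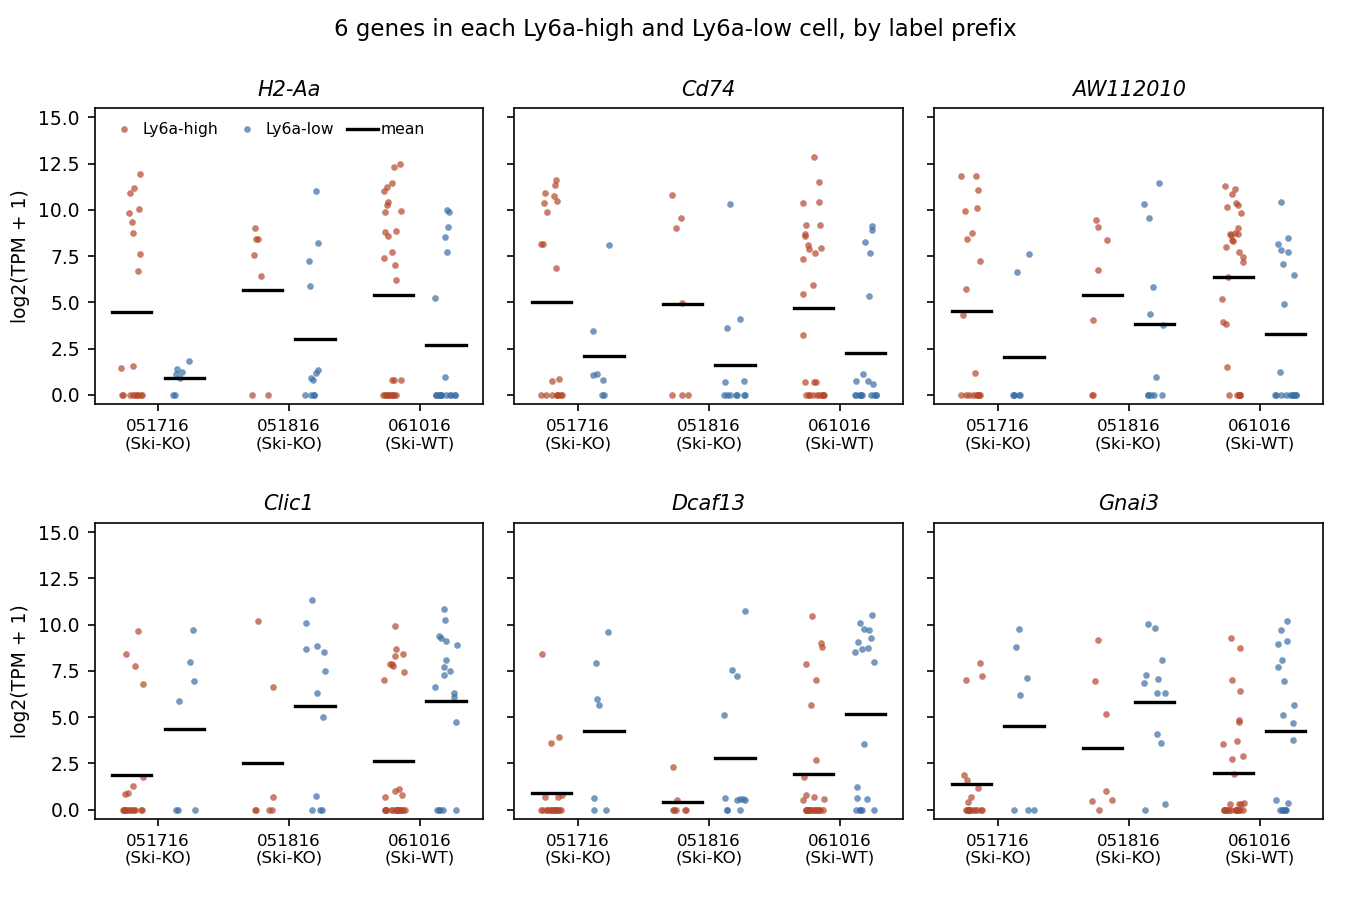
Values of 6 genes as log2(TPM + 1) in each Ly6a-high (red) and Ly6a-low (blue) cell by label prefix, with the mean of each group as a black bar. The upper row holds genes whose means are higher in Ly6a-high cells of all 3 prefixes and the lower row genes whose means are lower there, and in every panel both groups hold cells at 0.

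The next highest genes included transcripts linked to immune cells. AW112010, an RNA known to be induced by inflammatory signals, reached 5 TPM in 37 of 56 Ly6a-high cells (66.1%, 52.2% to 78.2%) and 16 of 38 Ly6a-low cells (42.1%, 26.3% to 59.2%). Its medians were 10.2 and 0 TPM in 051716, 107 and 6.72 TPM in 051816, and 253 and 0 TPM in 061016, with differences of 2.48, 1.53 and 3.11. Its highest value in 051816, 2771 TPM, was again in a Ly6a-low cell. Lst1, a small leukocyte membrane protein gene, reached 5 TPM in 26 and 7 cells, with a difference of 4.10 in 051716, 2.54 in 051816 and 1.51 in 061016. Naip5, an inflammasome receptor for bacterial flagellin, reached it in 18 and 4 cells (mean difference 1.47). Naip5 has close paralogues, so its reads may be shared with them.

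Receptor and surface genes formed another group. Ramp1, a partner of the receptor for calcitonin gene-related peptide, had medians of 49.97 and 0 TPM in 051716, 366 and 12.2 TPM in 051816, and 65.5 and 2.55 TPM in 061016. In 051816 all 7 Ly6a-high cells held between 20.1 and 469 TPM, and its difference there, 3.58, was the only one of the 72 that exceeded the SD in both groups (1.85 and 2.80). Sdc4, the heparan sulphate proteoglycan syndecan-4, was rare, at 5 TPM in 14 of 56 Ly6a-high cells (25%, 14.4% to 38.4%) and 1 of 38 Ly6a-low cells (2.63%, 0.0666% to 13.8%). The highest Sdc4 value among the Ly6a-low cells of the Ski-KO prefixes was 0.37 TPM. Plp2, a membrane proteolipid, had a mean difference of 2.19, but it overlaps Prickle3 on the genome, which had a difference of 1.53. The 2 followed each other across the 94 cells (Pearson's r 0.82 on log2 values), so their reads may not have been told apart.

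The remaining genes of the upper end act in the lysosome, in metabolism and in the nucleus. Ctsd, the lysosomal protease cathepsin D, reached 5 TPM in 36 and 16 cells with differences of 3.40, 1.32 and 1.31. Lamtor5, a subunit of the Ragulator complex on the lysosome, reached it in 37 and 15 cells (2.44, 1.56 and 1.46). Ldhb, a lactate dehydrogenase subunit, reached it in 31 and 14 cells (1.26, 2.86 and 2.20). Zfp330, a zinc finger protein, reached it in 25 of 56 Ly6a-high and 6 of 38 Ly6a-low cells, and in 0 of 7 Ly6a-low cells of 051716 (3.33, 1.87 and 1.74).

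At the other end, Clic1, an intracellular chloride channel protein, was lower in Ly6a-high cells. Its median was 0 TPM in the Ly6a-high cells of each prefix, against 57.1 TPM in the Ly6a-low cells of 051716, 129 TPM in those of 051816 and 153 TPM in those of 061016. It reached 5 TPM in 4 of 20 against 4 of 7 cells, 2 of 7 against 8 of 12, and 9 of 29 against 14 of 19. The mean of log2(TPM + 1) was 1.87 ± 3.30 (SD, 20 cells) and 4.35 ± 4.23 (7 cells) in 051716, 2.50 ± 4.18 (7 cells) and 5.59 ± 4.31 (12 cells) in 051816, and 2.65 ± 3.79 (29 cells) and 5.90 ± 3.91 (19 cells) in 061016. Over all cells, 15 of 56 Ly6a-high cells (26.8%, 15.8% to 40.3%) and 26 of 38 Ly6a-low cells (68.4%, 51.3% to 82.5%) held Clic1 at that level.

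Dcaf13, a factor of small ribosomal subunit assembly, had the lowest mean difference (-2.99, from -3.36, -2.38 and -3.24). It reached 5 TPM in 10 of 56 Ly6a-high cells (17.9%, 8.91% to 30.4%) and 19 of 38 Ly6a-low cells (50%, 33.4% to 66.6%). In prefix 051816 no Ly6a-high cell exceeded 3.94 TPM. Gnai3, an inhibitory alpha subunit of heterotrimeric G proteins, reached 5 TPM in 16 of 56 Ly6a-high cells (28.6%, 17.3% to 42.2%) and 25 of 38 Ly6a-low cells (65.8%, 48.6% to 80.4%). Its medians were 0 and 73.2 TPM in 051716, 1.04 and 97 TPM in 051816, and 0.23 and 24.8 TPM in 061016. Gng10, a gamma subunit of the same proteins, differed by -2.19, -3.30 and -1.50 and reached 5 TPM in 20 and 26 cells.

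Several of the other low genes serve mitochondria and metal handling. Tomm7 and Tomm22 are subunits of the complex that imports proteins through the outer mitochondrial membrane. Tomm7 was found at 5 TPM in 38 of 56 Ly6a-high and 35 of 38 Ly6a-low cells, including all 7 Ly6a-low cells of 051716, where it lay between 121 and 564 TPM. Its differences were -2.33, -1.70 and -1.82. Tomm22 was found in 15 and 19 cells (-2.03, -1.38 and -1.39). Prelid1, which carries lipid between the mitochondrial membranes, was found in 20 and 25 cells (mean difference -2.16), and it overlaps Mxd3. Atox1, a copper chaperone, was found in 32 and 29 cells (-1.99, -2.05 and -1.81), and Fam96a, now named Ciao2a, a factor of iron-sulphur protein assembly, in 28 and 28 cells (-3.59, -1.73 and -1.67).

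The last 3 low genes carry doubts of their own. Zcchc17 (mean difference -1.85) overlaps Fabp3, and Thumpd3 (-1.52), a tRNA methyltransferase gene, overlaps the Rosa26 transcript. Gm15772 is annotated as a processed pseudogene of Rpl26, a ribosomal protein gene. Gm15772 differed by -2.95, -1.98 and -1.75, while Rpl26 differed by 0.55, 1.04 and 0.83. Their values were negatively related across the 94 cells (Pearson's r -0.34 on log2 values), and the difference of their summed level was 0.31. Reads of a gene and its near-identical copy can be divided differently in each cell, so neither value alone is certain. The log2 ratio of mean TPM + 1 turned the sign of Gm15772 (0.13).

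**Figure D3:**
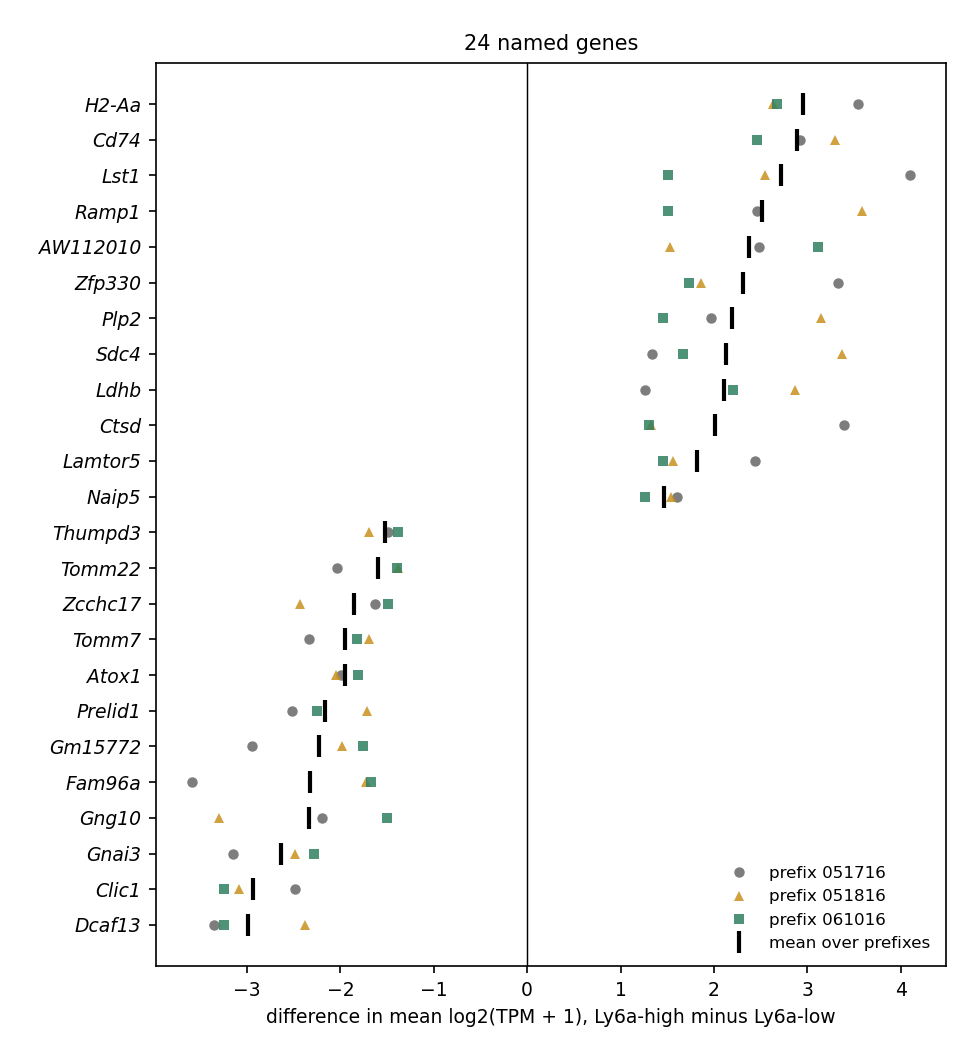
Difference in mean log2(TPM + 1), Ly6a-high minus Ly6a-low cells, for the 24 named genes, with a symbol for each label prefix and a bar for the mean over prefixes. The genes were chosen for having the same sign in all 3 prefixes, so their agreement is a result of the choice, and the means run from -2.99 for Dcaf13 to 2.95 for H2-Aa.

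Interferon response genes were examined because Ly6a is one of their known companions. Of 61 listed genes, 39 were measured widely enough. Of these, 6 (15.4%) were called higher (Irf1, Rsad2, Gbp7, Sp100, Dtx3l and Psmb8) and 1 (2.56%) lower (Irf9), beside 5.0% and 4.47% of all genes. In prefix 061016 the difference was 0.0002 for Irf1, 0.01 for Sp100, 0.16 for Dtx3l, 0.18 for Rsad2, 0.53 for Psmb8 and 1.38 for Gbp7. The calls of Irf1, Sp100, Dtx3l and Rsad2 thus rest on the sign of small values there. The median difference of the 39 genes was 0.58 beside 0.05 for all genes, and 0.77, 0.27 and 0.16 in prefixes 051716, 051816 and 061016. Another 5 genes were higher in all prefixes by less than 1 on average, among them Ifitm2 (0.56), an antiviral membrane protein found at 5 TPM in all 94 cells. The differences of most members were small or changed sign, as for Ifitm1 (2.65, -1.98 and 2.51), Ifi47 (0.52, 4.87 and -0.49) and Oasl2 (1.13, -1.04 and -1.38).

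Gbp7, a guanylate-binding GTPase, reached 5 TPM in 14 of 20 against 3 of 7 cells, 4 of 7 against 6 of 12, and 18 of 29 against 8 of 19. Its differences were 2.77, 0.51 and 1.38. Irf1, a transcription factor of interferon responses, reached it in 6 of 20 against 1 of 7 cells, 5 of 7 against 2 of 12, and 8 of 29 against 5 of 19. The Irf1 difference was 0.80, 3.33 and 0.00, so the Ski-WT cells added almost nothing to its mean. Rsad2, the antiviral enzyme viperin, was found in 9 Ly6a-high and 2 Ly6a-low cells, and both of the latter were Ski-WT. Irf9, a transcription factor of the interferon-activated complex, was lower (-0.68, -2.44 and -0.50). Stat2, its partner there, differed by 0.40 on average and was not called. Among 20 measured receptors and Jak and Stat genes, 1 was called higher and 1 lower, or 5% each beside 5.0% and 4.47% of all genes. The higher was Csf3r, the receptor for granulocyte colony-stimulating factor, and the lower Irf9, and the list's median was 0.40.

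Psmb8 encodes a catalytic subunit that takes the place of Psmb5 in the immunoproteasome, the form of the proteasome that serves antigen presentation. Psmb8 was higher in Ly6a-high cells (2.23, 0.75 and 0.53), and Psmb5 was lower (-2.18, -0.67 and -1.14). Psmb8 reached 5 TPM in 45 of 56 Ly6a-high cells (80.4%, 67.6% to 89.8%) and 26 of 38 Ly6a-low cells (68.4%, 51.3% to 82.5%). Psmb5 reached it in 18 of 56 (32.1%, 20.3% to 46%) and 24 of 38 (63.2%, 46% to 78.2%). Psmb8 exceeded Psmb5 in TPM in 44 Ly6a-high and 25 Ly6a-low cells, and in prefix 051816 that share was near equal, at 4 of 7 and 7 of 12. The other immunoproteasome subunits did not follow Psmb8 in every prefix. Psmb9 differed by -2.40, 3.29 and 0.31, and Psmb10 by 0.76, 2.70 and -0.39.

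Of 36 measured proteasome subunits, in a list added after these values were seen, 2 were called higher (Psmd8 and Psmb8) and 7 lower (Psmc6, Psmc5, Psmc2, Psmc1, Psmb5, Psmb3 and Psma5). Psmc1, an ATPase of the regulatory cap, was found at 5 TPM in 23 of 56 and 26 of 38 cells, and 4 of the 7 low genes encode such ATPases. The share called lower was 19.4% beside 4.47% of all genes, and without Psmb8 and Psmb5, which prompted the list, 6 of 34 were called lower. The list's median was -0.02, 0.58 and -0.57 by prefix, so its members did not move one way in every prefix. Of 21 measured class I antigen presentation genes, Psmb8 alone was called, or 4.76% called higher beside 5.0% of all genes. H2-K1, a class I heavy chain found at 5 TPM in all 94 cells, was higher by 0.70, 0.59 and 0.62.

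Promoters of interferon response genes are known for gamma-activated sites and for interferon-stimulated response elements, the latter bound by complexes with Irf factors. Both strands of the 250 bases before the start were searched for TTCNNNGAA (the first motif) and for GAAA followed by any 2 bases and GAAA again (the second), which 7.02% and 2.98% of the 32851 RefSeq promoters held. All 6 interferon genes called higher had a promoter in the table, of which 3 held the first motif and 2 the second. Of the 33 measured interferon genes not called higher, 28 had one, with 7 and 12. The Irf1, Gbp7 and Psmb8 promoters are shown because each holds the first motif, 90 bases before the first of 2 listed starts of Irf1 (the other holds neither motif), 106 and 87 before that of Gbp7 and 97 before that of Psmb8. Gbp7 also has the second motif 53 bases before its start. Capitals mark these matches, and all 3 lie on the plus strand of GRCm38.p6, at chr11:53769764-53770013 for Irf1, chr3:142530086-142530335 for Gbp7 and chr17:34197945-34198194 for Psmb8.
Irf1: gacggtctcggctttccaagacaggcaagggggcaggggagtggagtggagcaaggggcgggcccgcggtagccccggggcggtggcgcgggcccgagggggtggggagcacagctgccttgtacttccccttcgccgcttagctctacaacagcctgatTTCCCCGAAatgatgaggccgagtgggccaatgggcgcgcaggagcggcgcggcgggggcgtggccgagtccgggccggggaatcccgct
Gbp7: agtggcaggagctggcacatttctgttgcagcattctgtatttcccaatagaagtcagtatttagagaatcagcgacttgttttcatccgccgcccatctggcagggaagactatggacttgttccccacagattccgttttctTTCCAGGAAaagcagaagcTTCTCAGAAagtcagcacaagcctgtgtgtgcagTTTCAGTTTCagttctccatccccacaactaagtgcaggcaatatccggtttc
Psmb8: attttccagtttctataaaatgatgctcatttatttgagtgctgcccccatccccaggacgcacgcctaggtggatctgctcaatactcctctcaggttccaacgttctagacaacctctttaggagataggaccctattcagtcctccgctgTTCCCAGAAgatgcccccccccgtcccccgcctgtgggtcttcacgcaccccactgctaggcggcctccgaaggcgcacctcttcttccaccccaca

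A match of these letters is not a measured binding site. The first motif also occurred in promoters of 1 of the 9 matched genes among the 12 highest (Zfp330) and 1 of the 8 among the 12 lowest (Gng10), and the second in none of them. Over all 5464 genes, 4174 had a promoter in the table, and 312 held the first motif and 153 the second.

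Other mitochondrial genes had more calls on the lower side, and their medians changed sign between prefixes. Of 76 oxidative phosphorylation genes, 2 were called higher (Ndufa5 and Cox6b1) and 7 lower (Ndufb4, Ndufs8, Ndufv2, Uqcrc1, Atp5b, Atp5j and Atp5k), which is 2.63% and 9.21% beside 5.0% and 4.47% of all genes. Their median difference was 0.43 in 051716, -0.15 in 051816 and -0.79 in 061016, beside 0.26, 0.08 and -0.18 for all genes. Ndufv2, a core subunit of complex I, was found at 5 TPM in 30 of 56 and 31 of 38 cells, with differences of -2.70, -0.78 and -2.39. Of 19 Tom and Tim import genes, a list added after values were seen, 0 were called higher and 4 lower (Tomm70a, Tomm7, Tomm22 and Timm13). The share called lower was 21.1% beside 4.47% of all genes. Without Tomm7 and Tomm22, which prompted the list, 2 of 17 were called lower, and the medians were 0.07, 0.03 and -0.72 by prefix. The median number of genes per cell was likewise higher in Ly6a-high cells of 051716 and lower in those of 061016. With detected genes as a covariate, 279 of all genes were called higher and 285 lower, of which 223 and 203 were among the reported calls. The part of the number of genes in these medians by prefix was not tested. Among 14 G protein subunits, also listed afterwards, 1 was called higher (Gng11) and 3 lower (Gng2, Gng10 and Gnai3). The shares called were 7.14% and 21.4% beside 5.0% and 4.47% of all genes. Without Gng10 and Gnai3, which prompted the list, 1 of 12 was called lower, and the medians were -0.15, 0.38 and -0.25.

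Genes of long-term stem cell identity were called about as often as other genes. Of 39 measured, 3 were called higher (Hlf, Etv6 and Cd27) and 3 lower, Hoxa10 and Cdkn1b among them, which is 7.69% each way beside 5.0% and 4.47% of all genes. Their median was 0.97 in 051716, 0.10 in 051816 and -0.21 in 061016. Hlf, a transcription factor of stem cells, reached 5 TPM in 43 of 56 Ly6a-high cells (76.8%, 63.6% to 87%) and 22 of 38 Ly6a-low cells (57.9%, 40.8% to 73.7%), with differences of 0.19, 3.06 and 1.88. Procr, the protein C receptor EPCR that marks stem cells with long-term activity, was found at that level in 17 and 7 cells, and its differences of 1.61, 2.38 and -0.56 had no common sign. Gata2, a transcription factor of stem and mast cells, was lower by 0.61, 0.14 and 1.59 without being called.

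Genes of multipotent progenitors and activation had 2 called higher (Cd27 and Lsp1) and 0 lower of 11 measured, with a median of 0.42. The share called higher was 18.2% beside 5.0% of all genes. Lsp1, a leukocyte actin-binding protein, was found at 5 TPM in 37 of 56 Ly6a-high cells (66.1%, 52.2% to 78.2%) and 15 of 38 Ly6a-low cells (39.5%, 24% to 56.6%), with differences of 1.02, 1.67 and 3.67. Cd34, which rises as stem cells become progenitors, differed by 0.15, 0.57 and 0.98, and Flt3, a receptor of lymphoid-primed progenitors, by -0.33, 1.07 and 0.38. Neither was called.

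Lineage genes were mostly scarce. Prtn3, the myeloid protease proteinase 3, was higher in Ly6a-high cells (2.70, 1.12 and 1.29) and reached 5 TPM in 40 of 56 (71.4%, 57.8% to 82.7%) and 17 of 38 cells (44.7%, 28.6% to 61.7%). It and Csf3r were the genes called among 4 measured of the granulocyte and monocyte list, or 50% called higher beside 5.0% of all genes. The median of those 4 genes was -0.55, 0.56 and 0.78 by prefix, so the list did not move one way. Mpo, Elane, Ctsg, Cebpa, Csf1r and Ly6c2 of that list reached 5 TPM in no cell. Slc14a1, the urea transporter of the Kidd blood group, which the megakaryocyte list holds, was lower (-1.34, -2.09 and -1.83), at 5 TPM in 6 and 15 cells. Nfe2, a transcription factor of megakaryocytes and erythroid cells, was higher (2.31, 2.80 and 0.79). Slc14a1 and Nfe2 were the genes called among the 12 measured megakaryocyte genes, or 8.33% each way beside 5.0% and 4.47% of all genes. The median of these 12 genes was -0.54, from 1.16, -1.38 and -0.45 by prefix, and that of the 6 erythroid genes was -0.07. Nfe2 was also the gene called among those 6 (16.7% higher). None was called among 2 mast cell, 1 B cell, 2 T and natural killer cell and 3 endothelial or stromal genes measured.

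Few relatives of Ly6a were present. The gene lies between Ly6i and Ly6c1 in the RefSeq gene order. Ly6i and Ly6c2 reached 5 TPM in no cell, and Ly6c1 did so in 1 Ly6a-high cell. Ly6e, another interferon-induced family member, was in nearly every cell, with medians of 795 and 765 TPM in the Ly6a-high and Ly6a-low cells of 051716, 1011 and 828 TPM in 051816, and 987 and 634 TPM in 061016. Its differences of 1.28, 0.02 and 0.76 were below the SD of the cells and were not called. Cd59a, a complement inhibitor of the same fold, differed by -1.73, -2.46 and 0.48.

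The GPI anchor that Sca-1 needs is built by Pig enzymes from mannose that the Dpm complex supplies. Of 14 such genes measured, 2 were called higher (Dpm1, by 1.31, and Dpm3, by 1.27) and 1 lower (Pigp, by -1.29), and the third Dpm subunit, Dpm2, was higher by 0.69, 0.51 and 0.49. The shares called, 14.3% and 7.14%, stood beside 5.0% and 4.47% of all genes, and the list's median was 0.03. Of 3 other GPI-anchored protein genes measured, Prnp, the prion protein gene, was called lower (-0.79, -1.17 and -1.21). That is 33.3% beside 4.47% of all genes, and the median of the 3 was 0.39 (0.89, 1.43 and -1.14 by prefix).

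Cell cycle genes did not divide the groups in a common direction. Of 16 mitosis genes, Cdk1 was called higher and was found at 5 TPM in 11 and 3 cells, and the list's median was -1.10, 0.48 and 0.10 by prefix. Of 29 DNA replication genes, Rfc4, a clamp loader subunit, was called lower, and the medians were 0.45, 1.07 and -0.95. Of 14 G1 genes, Cdkn1b, which encodes the inhibitor p27, was called lower, with differences of -1.22, -1.35 and -0.46. Called shares were 6.25% (higher) of mitosis, 3.45% (lower) of replication and 7.14% (lower) of G1 genes, beside 5.0% and 4.47% of all genes.

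The signalling lists had between 0 and 3 genes called each. Immediate early genes (18 measured) and NF-kappaB pathway genes (12 measured) had 0 called in either direction, and their medians were above 1 in 051716 and below 0 in both other prefixes. TGF-beta, BMP and Smad genes, the pathway of Ski, had 0 called of 10 and a median of -0.32, below 0 in each prefix (-0.06, -0.10 and -0.55). Of 8 Notch and Wnt genes, Tcf7l2, a Wnt effector, was called higher (2.81, 0.89 and 1.39), or 12.5% beside 5.0% of all genes. Of 28 Ras, MAP kinase and PI3 kinase genes, Inpp5d, the lipid phosphatase Ship1, was called higher (1.65, 1.02 and 0.94), or 3.57%. Cell contact genes had 0 called higher and 3 lower of 21 (14.3% beside 4.47%): Cd47, the signal that protects cells from phagocytosis (-1.34, -0.59 and -3.24), and the Src family kinases Lyn and Fyn.

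Of 14 apoptosis and p53 genes, Mdm2 was called higher and Xiap lower, or 7.14% each beside 5.0% and 4.47% of all genes. Of 22 heat shock and unfolded protein genes, Herpud1 was called lower (-3.01, -2.45 and -1.02), or 4.55%. Splicing factors had 1 called higher (Sf3a3) and 4 lower (Sf3b1, Prpf8, Snrpc and Snrpf) of 49, or 2.04% and 8.16%. Glycolysis and pyruvate genes had 3 called higher (Pfkp, Pgam1 and Ldhb) and 0 lower of 21, or 14.3% higher, with a median of 0.29, and Ldhb was already among the 12 highest. The 81 ribosomal protein genes had 0 called in either direction and a median of 0.07.

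**Figure D4:**
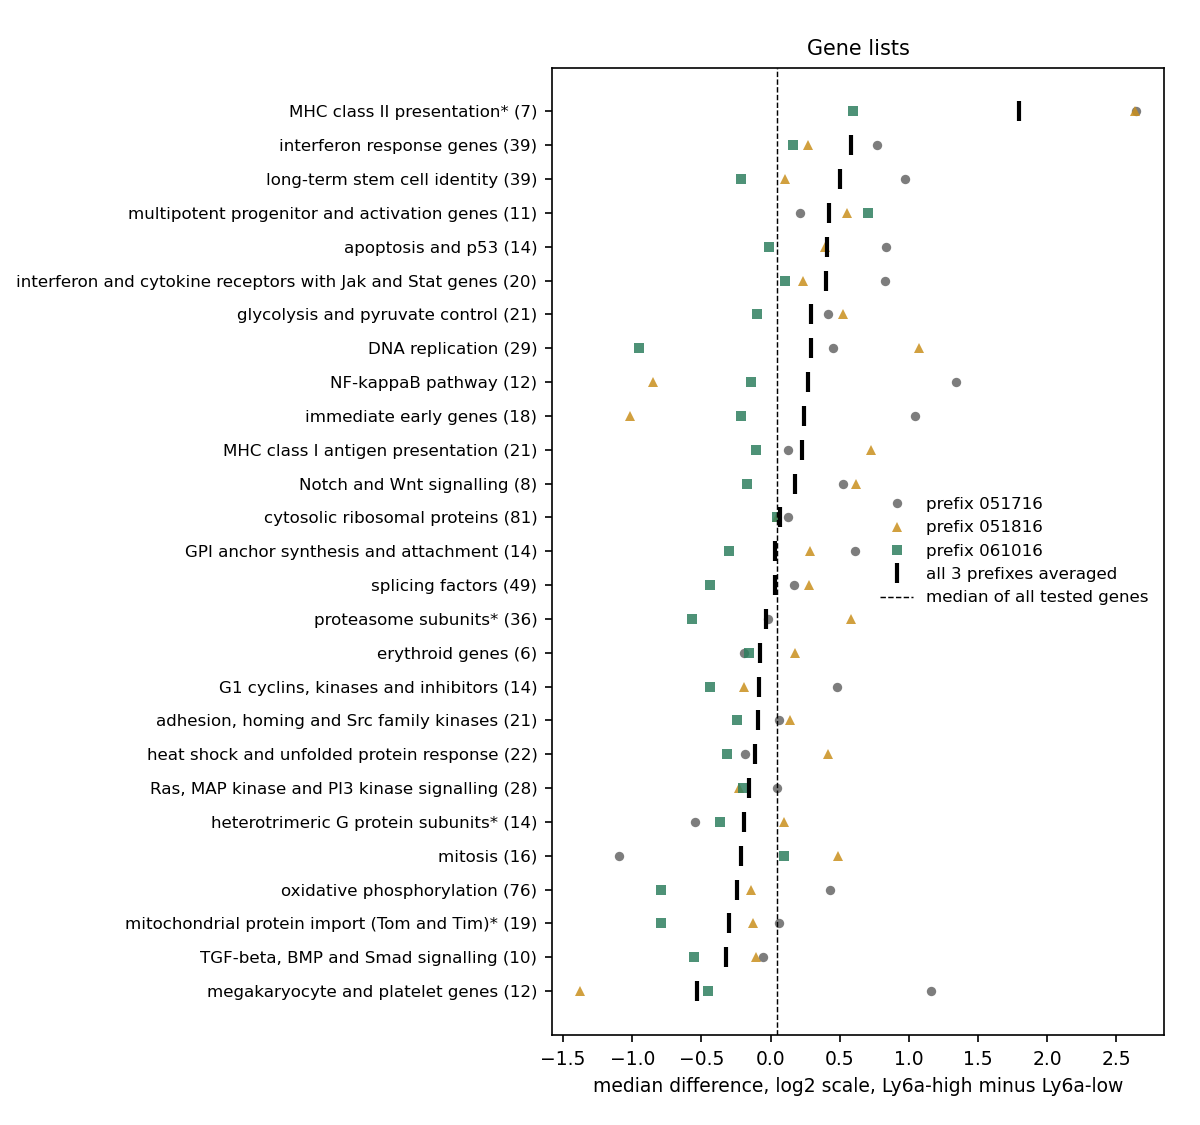
Median difference of log2(TPM + 1), Ly6a-high minus Ly6a-low cells, over the measured genes of each list with at least 6 of them (number in brackets), with a symbol for each label prefix and a bar for the median of the differences averaged over prefixes. The dashed line is the median of all 5464 genes (0.05), asterisks mark lists added after values were seen, and most lists have symbols on both sides of 0.

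Within Ly6a-high cells, the level of Ly6a did not rank the named genes in the same way in the 2 larger prefixes. Spearman's rho with Ly6a was 0.32 for H2-Aa and 0.37 for Cd74 over the 20 Ly6a-high cells of 051716, and -0.06 and 0.07 over the 29 of 061016. For Clic1 the values were -0.06 and -0.13. These are correlations across cells of unknown depth and are given as a description.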

How the data were processed

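Single-cell RNA was measured in 94 cells, each a deposited sample, with libraries from SMARTer cDNA and Nextera XT chemistry read as 150 bp paired ends, per the labels' protocols. The submitters' processing notes list Bowtie2 and RSEM, with no version or role, and the genome build mm9. Values deposited by the authors are log2(TPM + 1) for 13244 genes, as read from the values: back-transformed, each cell sums to between 997625 and 999995. Such values keep no depth, so the only intervals are exact Clopper-Pearson intervals at 95% on shares of cells.

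The members, the 32 gene lists and the naming rule were chosen with earlier results of these data known. Another 4 lists, the Y box motif and the genes whose promoters were searched were chosen after these values were seen. A search for the interferon motifs had been planned for Ly6a alone, but no promoter of Ly6a was available and it was not made. Cells at 5 TPM of Ly6a or more were compared with the rest inside each label prefix (each with at least 4 cells of both groups), as differences of mean log2(TPM + 1), with a pseudocount of 1. Genes above 0 in 25% of cells were kept, and Ly6a was left out. The 12 genes at each end with the same sign in all prefixes and the largest smallest difference were named, and in each list up to 4 by the same measure, with the sort genes, Procr, Cd34 and Ly6 genes whatever their values. Other list members are named because their list was called, or after their values were seen. No cell was removed, no doublet caller was run and no test was made. The scripts were tested on simulated data. Alternatives covered the Ly6a limit, pseudocount, linear means, filters, prefix weights, normalization, detected genes as a covariate, and leaving out prefixes or cells. Promoters came from RefSeq (GRCm38.p6), a build other than mm9, so they show reference sequence only. Tables were handled with pandas 2.3.3 and numpy 2.4.6 under Python 3.11.15, intervals came from scipy 1.17.1, and figures from matplotlib 3.10.9.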

Additional observations from a re-analysis of the deposited data

How the results depend on the processing

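Under the 16 alternatives the median over all genes ran from -0.10 to 0.17, so its sign depended on the choice, and the counts of called genes, 273 higher and 244 lower, moved with several choices. They were 178 and 368 with a Ly6a limit of 50 TPM, 441 and 388 with a pseudocount of 0.1, 64 and 64 with a pseudocount of 10, and 154 and 132 among the 2494 genes above 0 in 50% of cells, where fewer genes were measured. Linear means gave 548 higher, pooling all cells gave 396 lower, and leaving out a prefix gave 537 lower without 051716, 496 lower without 051816 and 849 higher without 061016, each with a rule over 2 prefixes. The cause was not tested for the other shifts. With a limit of 1 TPM, 180 of the 273 higher and 118 of the 244 lower reported calls were shared. With a limit of 50 TPM, 123 of the 178 higher and 150 of the 368 lower genes were shared with the reported calls. For the 24 named genes under 16 alternatives, 301 values moved by less than the SD of the gene's 3 prefix differences, 82 moved more and 1 reversed (Gm15772, 0.13 on linear means). Differences under 1 were found for 8 of these genes: Lamtor5 (0.81), Tomm22 (-0.40) and Thumpd3 (-0.64) at 1 TPM and likewise with intermediate cells left out, Ctsd (0.88) and Tomm22 (-0.63) at 50 TPM, Lamtor5 (0.98), Naip5 (0.90) and Thumpd3 (-0.83) with a pseudocount of 10, and Lamtor5 (0.38), Ctsd (0.55), Tomm7 (-0.43) and Atox1 (-0.75) on linear means. The interferon list's median stayed above 0 in all of these alternatives, between 0.27 and 0.71. Leaving out each cell in turn was added after seeing the data. It gave 244 to 313 higher and 213 to 282 lower genes. All 24 named genes stayed called with any single cell left out, but they had been chosen for large differences in every prefix of these data. No paired analysis was possible because cell numbers in the titles only number cells and no test was made.

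Limits: the labels tie cells to no animal, so each genotype counts as 1 sample, all Ski-WT cells carry 1 prefix that no Ski-KO cell has, 7 cells form the smaller group in both Ski-KO prefixes, and unknown depth limits what a transcript at 0 shows.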
